A study of Homo sapiens with 24 samples.

Results

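The genes described are 10 human glutathione transferases and their membrane-bound relatives, GSTA1, GSTA4, GSTM3, GSTM4, GSTO1, GSTP1, GSTK1, MGST1, MGST2 and MGST3, found by their Entrez gene ID in a table of 3′ RNA-Seq read counts. All 10 were in the table, among 11927 features with a gene ID, and all 10 were among the 11152 genes tested. They were measured in HepG2, an established cell line from a human liver cancer, carrying lentiviral Cas9 with 1 of 3 guide RNAs, in puromycin-selected populations rather than clones. The control guide sgCtrl cuts the AAVS1 site, and sgKEAP1-1 and sgKEAP1-2 cut KEAP1, so every group carried Cas9 and a guide. Each population received a non-targeting siRNA pool (siNC) or pools against TFEB and TFE3 (siTFEB/siTFE3), and RNA was taken 72 h later, which gave 6 groups of 4 libraries. No source used here says that the 4 libraries of a group came from separate transductions, so p-values measure the spread between these libraries, which may be technical.

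Glutathione transferases join the tripeptide glutathione to electrophilic drugs, carcinogens and products of lipid peroxidation, which makes them water-soluble and ready for export. The cytosolic enzymes are grouped into classes such as alpha, mu, omega and pi, the kappa enzyme sits in mitochondria and peroxisomes, and the microsomal MGST proteins belong to the separate MAPEG family of membrane proteins. Many genes of this kind are regulated by NRF2 (gene NFE2L2), the transcription factor that KEAP1 marks for degradation. NRF2 binds antioxidant response elements (AREs), and TFEB and TFE3 bind E-box elements of lysosomal genes. The comparisons ask which of the 10 transcripts differ with KEAP1 disruption, and whether the difference depends on TFEB and TFE3.

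Values are CPM, the reads of a gene scaled to a common library size of 1e6 reads, with library sizes adjusted by the trimmed mean of M values (TMM), and tests are limma-voom with Benjamini-Hochberg adjustment over all 11152 genes at a threshold of 0.05. Reads come from transcript ends, so a CPM is not divided by transcript length. Total reads ranged from 3527000 to 4600951 per library. TFEB lay at 6.98 to 17.3 CPM in the siNC libraries and at 1.41 to 4.43 CPM in the siTFEB/siTFE3 libraries, and TFE3 at 29.2 to 75.6 and 7.88 to 19.6 CPM, with no overlap for either. NQO1, an NRF2 target outside the family, lay at 592 to 758 CPM with sgCtrl, at 1500 to 1650 CPM with sgKEAP1-1 and at 1670 to 1940 CPM with sgKEAP1-2. KEAP1 mRNA, which a guide need not lower, was at 77.5 to 93.6, 48.1 to 63.5 and 69.7 to 90.6 CPM in the same order. The 9 hepatic markers examined all had reads in every library. Their summed level, without TMM, was 24300 to 33600 CPM in the 8 sgCtrl libraries and 13000 to 18200 CPM in the 16 KEAP1-guide libraries. With sgKEAP1-1 under siNC, mean ALB was 4450 CPM against 10900 CPM with sgCtrl, and mean AFP 2180 against 7330 CPM. APOA1, FGB, HNF4A and TF were also called lower there. APOB, TTR and SERPINA1 did not pass (log2 fold changes -0.20, 0.01 and -0.09, limma-voom). The part of the drop in these markers in the results was not tested. Fewer cells of a type and less RNA per cell cannot be told apart in such bulk samples. Replicate 1 of siNC; sgKEAP1-1 and the library of that number in siTFEB/siTFE3; sgKEAP1-2 stood apart from the rest, and in the latter MTRNR2L8 alone took 4.53% of the reads of named genes, against at most 1.25% for the top gene of any other library.

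The promoters of the members on which the results turn are shown first, because the study disrupts the repressor of a factor that binds a known motif. RefSeq windows from 250 bases before to 50 after the start site (GRCh38.p14) were matched for 9 of the 10 members. They were searched on both strands for TGACNNNGC, the ARE core, and for CACGTG, the E-box core, whose letters can overlap in part. In the stretches below, capitals mark the ARE core match.
GSTA1 (chr6:52803817-52803916, minus strand): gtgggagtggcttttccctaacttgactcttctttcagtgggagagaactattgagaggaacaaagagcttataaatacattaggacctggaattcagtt
GSTA2 (chr6:52763476-52763575, minus strand): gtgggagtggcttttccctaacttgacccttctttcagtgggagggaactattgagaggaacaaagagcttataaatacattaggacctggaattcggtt
GSTO1 (chr10:104254656-104254750, plus strand): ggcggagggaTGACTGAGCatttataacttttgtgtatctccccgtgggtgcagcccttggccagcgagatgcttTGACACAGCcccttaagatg
GSTP1 (chr11:67583712-67583811, plus strand): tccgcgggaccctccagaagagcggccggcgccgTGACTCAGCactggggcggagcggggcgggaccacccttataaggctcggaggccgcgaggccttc
MGST1 (chr12:16347135-16347164, plus strand): ggggacatcgTGACAAAGCaaattgtctgg
The GSTO1 window held 2 ARE core matches, which begin 226 and 161 bases before the start site, and the GSTP1 window held 1, which begins 66 bases before it. The MGST1 match begins 30 bases past 1 of the 3 start sites listed for that gene, and GSTA4 had a match that begins 9 bases before its start. No match was in the windows of GSTA1, GSTM3, GSTM4, GSTK1 or MGST3, which says only that these letters are not in these windows. So 4 of 9 members had an ARE core match, where 16.1% of all 27305 genes with windows did, and 0 of 9 had the E-box core, where 8.77% did. GSTA1 and GSTA2, neighbouring alpha class genes, had the same base at 97 of 100 positions of the stretches printed and at 288 of 300 over the whole windows, and GSTA2 is shown because of that likeness.

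With KEAP1 disrupted, GSTA1, MGST1 and GSTO1 rose, and no member fell in the limma-voom fit of 6 group means, which has no block for replicate number. With sgKEAP1-1 under siNC, 3 of 10 members were called higher and 0 lower, where 6.01% of all genes tested were called higher and 4.91% lower. With sgKEAP1-2 under siNC the same 3 genes were called higher and 0 lower, beside 7.58% and 7.14% of all genes. Under siTFEB/siTFE3, sgKEAP1-1 again gave 3 higher and 0 lower, beside 5.69% and 4.81%, and sgKEAP1-2 gave 2 higher and 0 lower, beside 10.6% and 9.59%. With the replicate number as a block, since all libraries of a number share a prefix written like a day and month, that last comparison called 4 members in place of 2, with GSTO1 higher and MGST2 lower in addition. The share of all genes called in that blocked fit is not given here. The median log2 fold change of the 10 members was 0.03, 0.23, 0.17 and 0.09 in these 4 comparisons, against -0.02, 0.00, 0.00 and 0.01 over all genes tested. These medians include GSTP1, which was read in a minority of libraries (SE 1.81 to 3.35), so they can shift with 1 poorly measured gene. All of these comparisons use the sgCtrl libraries of their siRNA as the reference.

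GSTA1, an alpha class enzyme abundant in liver that conjugates drugs and products of peroxidation, gave the largest change of the 3 that rose. It lies on the minus strand of chromosome 6 (GRCh37, 52656169 to 52668614). In siNC; sgCtrl its libraries held 25.1, 19.7, 19.5 and 17.0 CPM, in siNC; sgKEAP1-1 175, 82.5, 155 and 92.1 CPM, and in siNC; sgKEAP1-2 193, 96.9, 153 and 104 CPM. Every KEAP1-guide library was thus above every control library. The log2 fold change was 2.57 with sgKEAP1-1 (SE 0.33, adjusted p = 4.44e-06) and 2.70 with sgKEAP1-2 (SE 0.33, adjusted p = 1.17e-06, limma-voom), or 5.94-fold and 6.49-fold.

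After TFEB and TFE3 knockdown the GSTA1 pattern was alike. The siTFEB/siTFE3; sgCtrl libraries held 16.6, 12.6, 22.5 and 26.8 CPM, the siTFEB/siTFE3; sgKEAP1-1 libraries 132, 79.2, 122 and 89.4 CPM, and the siTFEB/siTFE3; sgKEAP1-2 libraries 161, 65.4, 119 and 99.1 CPM. The groups again did not overlap, and the log2 rise of GSTA1 was 2.44 ± 0.33 (SE, adjusted p = 1.19e-05) for sgKEAP1-1 and 2.47 ± 0.33 (adjusted p = 4.6e-06, limma-voom) for sgKEAP1-2. In each of the 4 KEAP1-guide groups the libraries numbered 1 and 3 lay above their group mean, at deviations of 0.18 to 0.60 in log2 CPM, and those numbered 2 and 4 lay below it, at -0.69 to -0.09. The GSTA1 spread between libraries, at a residual SD of 0.45 in log2 CPM, was larger than that of 7 members and smaller than those of MGST3 and GSTP1.

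GSTA2 is the closest relative of GSTA1 in the table and a part of its reads could be counted for either gene. Of the 75-base stretches in the last 500 bases of the main GSTA1 transcript, 3.3% also occur in GSTA2, so most reads from these ends differ. GSTA2 held 3 to 28 reads (0.724 to 6.94 CPM) in the 8 sgCtrl libraries and 112 to 286 reads (27.6 to 69.2 CPM) in the 16 KEAP1-guide libraries. Its log2 fold change was 3.56 (SE 0.45, adjusted p = 3.65e-06) with sgKEAP1-1 and 3.53 (SE 0.45, adjusted p = 2.35e-06, limma-voom) with sgKEAP1-2 under siNC. The reads of GSTA1 per read of GSTA2 ranged from 3 to 17.3 with sgCtrl and from 1.84 to 3.02 with a KEAP1 guide.

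**Figure D1:**
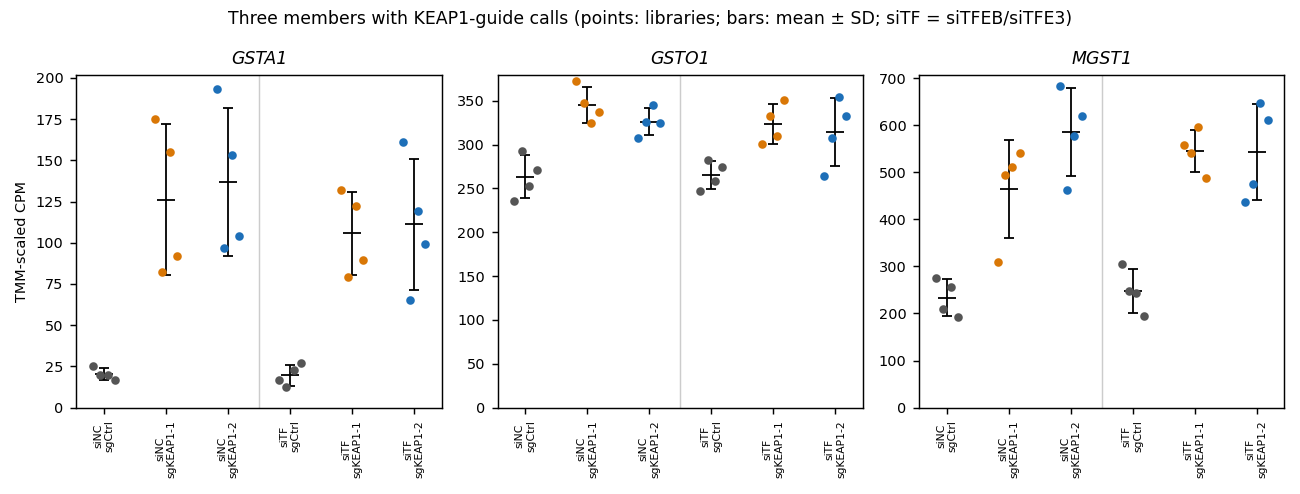
TMM-scaled CPM (vertical axis, from 0) of GSTA1, GSTO1 and MGST1 in each of the 24 libraries, by group along the horizontal axis. Points are libraries in the order of their numbers, and bars give the mean ± SD of 4. GSTA1 libraries with a KEAP1 guide sit between 65.4 and 193 CPM, all above the sgCtrl libraries, whose highest value is 26.8 CPM.

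MGST1, a microsomal enzyme of the endoplasmic reticulum and outer mitochondrial membrane with both transferase and peroxidase activity, was second in size among the 3 that rose. It lies on the plus strand of chromosome 12 (GRCh37, 16500579 to 16517344). Under siNC its 4 sgCtrl libraries held 276, 209, 256 and 193 CPM, its sgKEAP1-1 libraries 310, 495, 512 and 540 CPM, and its sgKEAP1-2 libraries 683, 462, 577 and 620 CPM. The groups did not overlap, although the 310 CPM of siNC; sgKEAP1-1 replicate 1, 1 of the 2 libraries that stand apart, was close to the highest control. The log2 rise of MGST1 was 0.97 ± 0.17 (SE, adjusted p = 0.000242) for sgKEAP1-1 and 1.33 ± 0.17 (adjusted p = 2.09e-06, limma-voom) for sgKEAP1-2. With both libraries that stand apart left out, the sgKEAP1-1 value was 1.16 (adjusted p = 7.25e-07).

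Under siTFEB/siTFE3 the sgCtrl libraries held 306, 248, 243 and 194 CPM of MGST1, the sgKEAP1-1 libraries 558, 540, 596 and 488 CPM, and the sgKEAP1-2 libraries 436, 476, 647 and 611 CPM. Here too the groups were separate, and the log2 rise was 1.15 ± 0.17 (SE, adjusted p = 2.54e-05) for sgKEAP1-1 and 1.13 ± 0.17 (adjusted p = 1.55e-05, limma-voom) for sgKEAP1-2. Without the 8 libraries that hold reads of JCHAIN, described with GSTP1, siTFEB/siTFE3; sgKEAP1-1 keeps 1 library, which has to be assumed to vary like the other groups. The sgKEAP1-1 value was then 1.28, no smaller than with all libraries, with an adjusted p of 0.0553 in limma-voom.

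GSTO1, an omega class enzyme with a cysteine in its active site that reduces dehydroascorbate and methylated arsenic, changed least of the 3. It lies on the plus strand of chromosome 10 (GRCh37, 106014650 to 106027213). Under siNC its sgCtrl libraries held 236, 293, 253 and 271 CPM, its sgKEAP1-1 libraries 373, 347, 325 and 337 CPM, and its sgKEAP1-2 libraries 308, 326, 345 and 325 CPM. All 8 guide libraries were above the control libraries, and the log2 rise was 0.39 ± 0.09 (SE, adjusted p = 0.00516) for sgKEAP1-1 and 0.31 ± 0.09 (adjusted p = 0.0225, limma-voom) for sgKEAP1-2, or 1.31-fold and 1.24-fold. The sgKEAP1-2 call was lost when siNC; sgCtrl replicate 1 or 3, or siNC; sgKEAP1-2 replicate 2, 3 or 4, was left out (adjusted p = 0.0511 to 0.0939), and without the 8 libraries with JCHAIN reads (0.37, adjusted p = 0.0992).

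The GSTO1 calls under siTFEB/siTFE3 were near the threshold. Its sgCtrl libraries held 247, 282, 258 and 274 CPM, its sgKEAP1-1 libraries 301, 332, 310 and 351 CPM, and its sgKEAP1-2 libraries 264, 307, 354 and 333 CPM. The sgKEAP1-1 libraries lay above the controls, while the 264 CPM of siTFEB/siTFE3; sgKEAP1-2 replicate 1 lay within their range. GSTO1 passed with sgKEAP1-1 (log2 fold change 0.29, SE 0.09, adjusted p = 0.0454) and did not pass with sgKEAP1-2 (0.24, SE 0.09, adjusted p = 0.0682, limma-voom). With the replicate number as a block the latter passed (0.24, adjusted p = 0.0474). It also passed with the 2 libraries that stand apart left out (0.32, adjusted p = 0.00479), or without siTFEB/siTFE3; sgKEAP1-2 replicate 1 alone (0.32, adjusted p = 0.00956). The sgKEAP1-1 call was lost when any of 20 of the 24 libraries was left out (adjusted p up to 0.18) and was kept without siNC; sgCtrl replicate 1, siNC; sgKEAP1-1 replicate 1 or siTFEB/siTFE3; sgKEAP1-2 replicate 1 or 3.

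**Figure D2:**
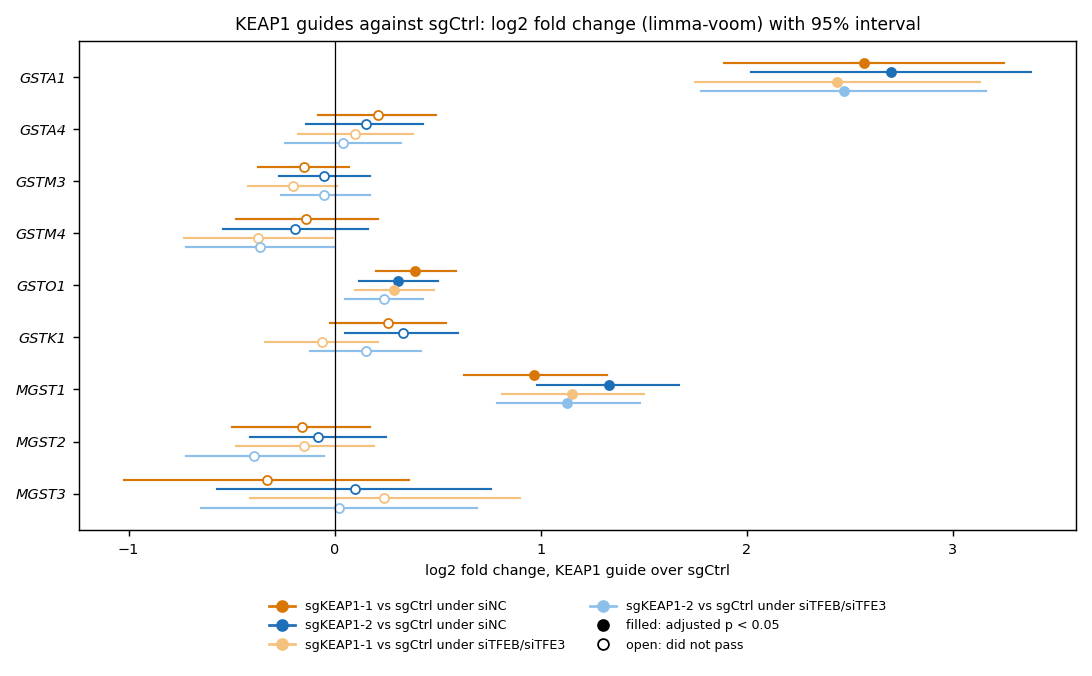
Log2 fold change of 9 members (rows) with each KEAP1 guide against sgCtrl, under siNC (dark) and under siTFEB/siTFE3 (pale), with 95% intervals; filled points passed an adjusted p of 0.05 in limma-voom. GSTA1 lies between 2.44 and 2.70 and MGST1 between 0.97 and 1.33, and the open points of the other members lie within 0.39 of 0; GSTP1, whose reads came from a minority of libraries, is left out.

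The other cytosolic members gave no call. GSTA4, an alpha class enzyme selective for 4-hydroxynonenal from lipid peroxidation, lay at 24.1 to 41.5 CPM over all 24 libraries, with log2 fold changes of 0.04 to 0.21 with the KEAP1 guides. GSTM3, a mu class enzyme, lay at 36.4 to 50.5 CPM and gave -0.20 to -0.05. GSTM4, also of the mu class, lay at 10.5 to 21.2 CPM. Of its 75-base end stretches 13.1% also occur in GSTM1 or GSTM2, neither of which has a row in the table of counts. Its siTFEB/siTFE3; sgCtrl libraries held 17.6, 18.6, 17.8 and 16.4 CPM, against 14.4, 13.9, 14.2 and 12.2 CPM with sgKEAP1-1 and 13.0, 13.8, 15.4 and 12.5 CPM with sgKEAP1-2. Both guide groups lay below the control group, but the log2 fold changes of -0.37 (SE 0.18, adjusted p = 0.212) and -0.36 (SE 0.18, adjusted p = 0.163, limma-voom) did not pass.

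GSTK1, the kappa class enzyme of mitochondria and peroxisomes, was the one remaining member whose guide libraries all lay above the controls in a KEAP1 comparison. The share of all genes tested whose groups separate in this way is not given, here or for other members, so separation is description only. Under siNC it held 32.5, 42.1, 42.2 and 40.3 CPM with sgCtrl and 45.5, 56.5, 50.8 and 44.4 CPM with sgKEAP1-2. The log2 fold change of 0.33 (SE 0.13) did not pass (adjusted p = 0.108, limma-voom), and with sgKEAP1-1 it was 0.26 (adjusted p = 0.255). Under siTFEB/siTFE3 the corresponding values were 0.15 and -0.06, and neither passed.

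The 2 remaining MAPEG genes depended on the libraries that stand apart. MGST2, which can also make leukotriene C4, lay at 302, 400, 440 and 414 CPM in siNC; sgCtrl and gave log2 fold changes of -0.39 to -0.08 with the KEAP1 guides, none of which passed. The lowest, in sgKEAP1-2 under siTFEB/siTFE3, rested on libraries at 175, 284, 321 and 287 CPM, and passed with the replicate number as a block (-0.39, adjusted p = 0.0329). It was -0.20 without the 2 libraries that stand apart, the 175 CPM library among them, and -0.51 without replicate 3 of that group (adjusted p = 0.0458). MGST3, a membrane enzyme with peroxidase activity, held 16.1, 71.1, 60.3 and 74.5 CPM in siNC; sgKEAP1-1 and 24.4, 74.3, 84.1 and 71.1 CPM in siTFEB/siTFE3; sgKEAP1-2. The first value of each is from a library that stands apart, and the other 22 libraries lay between 51.5 and 84.1 CPM. With all 24 libraries MGST3 gave -0.33 (adjusted p = 0.616) with sgKEAP1-1 under siNC and 0.02 (adjusted p = 0.977) with sgKEAP1-2 under siTFEB/siTFE3. Without those 2 libraries the values were 0.20 (adjusted p = 0.327) and 0.39 (adjusted p = 0.0184, limma-voom), and the second then passed.

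**Figure D3:**
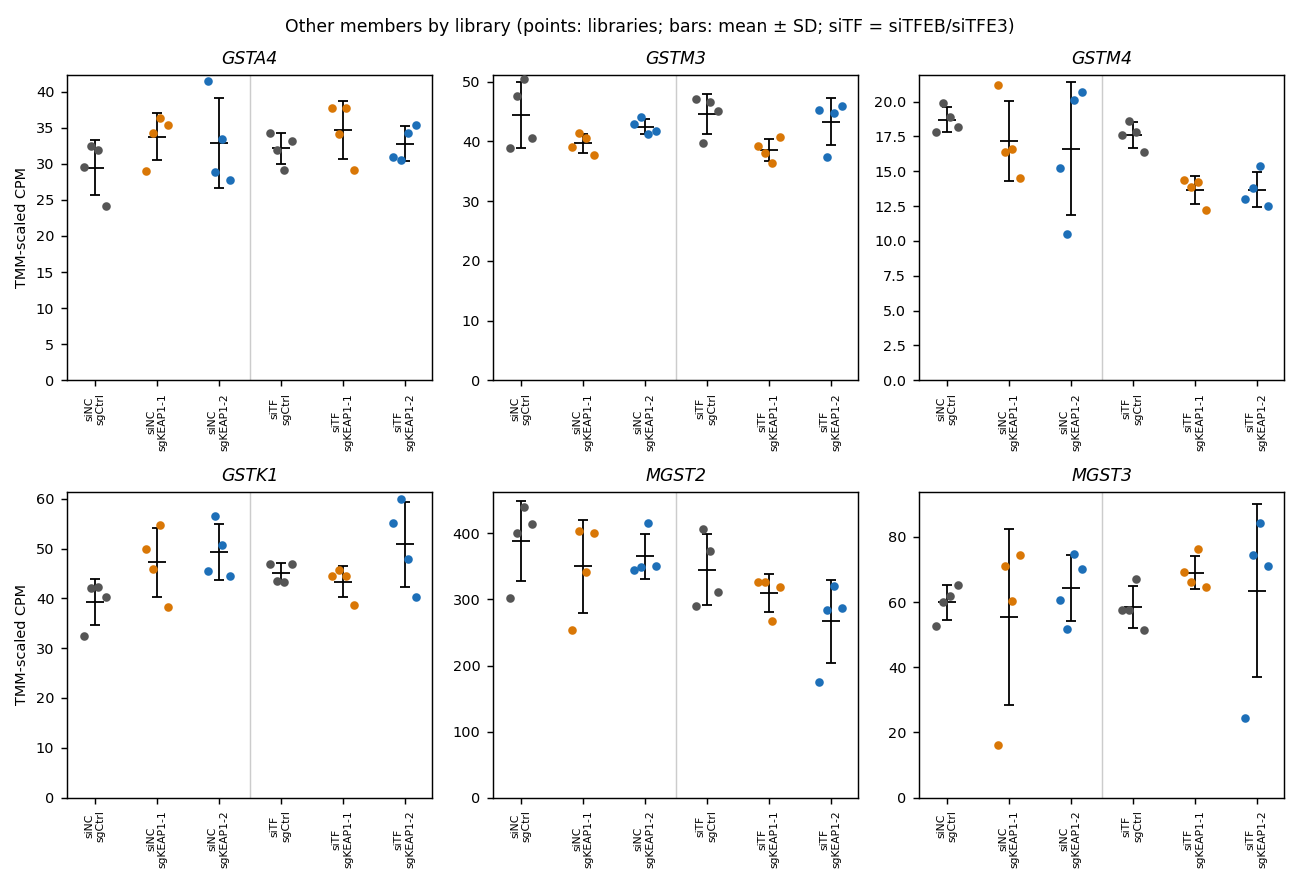
TMM-scaled CPM (vertical axis, from 0) of 6 members in the 24 libraries, by group along the horizontal axis, with points for libraries and bars for the mean ± SD of 4. The low MGST3 points at 16.1 and 24.4 CPM are the 2 libraries that stand apart. Some groups of GSTM4, GSTK1 and MGST2 do not overlap, as given in the text.

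GSTP1, the pi class enzyme that is widespread in tissues but low in hepatocytes, was read in few libraries. It held 1031 reads in siTFEB/siTFE3; sgKEAP1-2 replicate 2, between 18 and 76 reads in 7 others, 1 read in 1 library and 0 in 15, so 77.0% of its 1339 reads came from 1 library. The 7 are siNC; sgCtrl replicate 2, siNC; sgKEAP1-2 replicate 4, siTFEB/siTFE3; sgCtrl replicates 1 and 4, and siTFEB/siTFE3; sgKEAP1-1 replicates 1, 2 and 4. GSTP1 thus passed the filter on low counts through a minority of libraries, and every group had at least 1 library at 0. In siNC; sgKEAP1-1 all 4 libraries were at 0, where the floor of 3 reads applies to each library. The GSTP1 fold change of that group against siNC; sgCtrl is not given, although the median of the members for that comparison includes it. In the other 3 KEAP1 comparisons the log2 fold change of GSTP1 ranged from 0.16 to 2.00 with SE of 1.81 to 3.23, and none of the 4 comparisons passed in limma-voom. DESeq2 called GSTP1 lower with sgKEAP1-1 under siNC (adjusted p = 2.24e-05), a call that rests on 1 siNC; sgCtrl library with reads.

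The libraries with GSTP1 reads also held reads of JCHAIN, which encodes the joining chain of antibodies and marks plasma cells. The same 8 libraries held 10 or more reads of both genes, and the other 16 held 0 JCHAIN reads and at most 1 GSTP1 read. In those 8 libraries there were 0.353 to 1.64 GSTP1 reads per JCHAIN read, and over the 24 libraries Pearson's r of log2(CPM + 1) was 0.99, or 0.984 without the highest library. Both genes were read in the same libraries and the points share their depth, so r is a description. Of 12 plasma cell genes listed after these values were seen, 8 were in the table. They summed to 39 to 2122 reads in the 8 libraries and to 6 to 32 reads in the other 16, where genes other than POU2AF1 summed to at most 3. JCHAIN is 1 of these 8 genes, and it held 1328 of the 2122 reads and 11 of the 39. Its reads also sort the libraries, so part of this separation was fixed in advance. The part of plasma cell RNA in the GSTP1 reads was not tested. Among 10 markers of leukocytes, endothelium and fibroblasts, 3 had rows (LYZ, CD14 and PDGFRB). They summed, without TMM, to 1350 to 2760 CPM with sgCtrl and 918 to 1910 CPM with a KEAP1 guide. Nearly all of these reads were LYZ, which held 6034 of 6091 in siNC; sgCtrl replicate 1, a library with 0 JCHAIN reads.

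**Figure D4:**
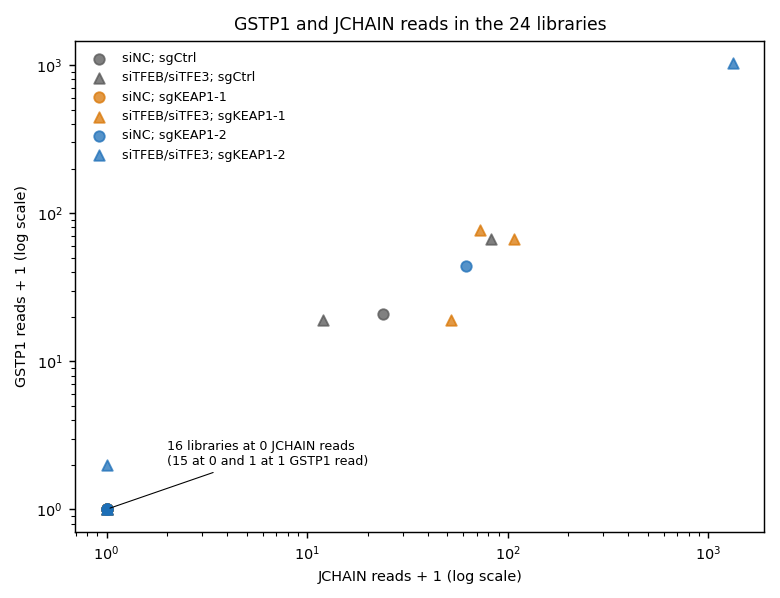
Reads of GSTP1 (vertical, log scale, plus 1) against reads of JCHAIN (horizontal, log scale, plus 1) in the 24 libraries, coloured by guide and shaped by siRNA. The 8 libraries with JCHAIN reads lie along a rising line up to 1328 JCHAIN and 1031 GSTP1 reads, and the other 16 sit at 0 JCHAIN reads.

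Knockdown of TFEB and TFE3 gave no call among the 10 members. In sgCtrl cells 0 of 10 members were called, beside 0.0179% of all genes tested, in sgKEAP1-1 cells 0 of 10, beside 0.0897%, and in sgKEAP1-2 cells 0 of 10, beside 0.359%. Averaged over the 3 guides, 0 of 10 were called, beside 2.33%. An unadjusted p under 0.05 in limma-voom was found for 2 of 10 members, beside 1448 of all 11152 genes tested. The 2 members were MGST2 and GSTM4. The comparisons within a guide called 2, 10 and 40 genes of 11152 in all (4, 30 and 57 with the replicate number as a block), so a count of 0 members is near the background in each.

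MGST2 had the smallest knockdown p of the members. In sgKEAP1-2 cells it held 345, 349, 416 and 351 CPM with siNC and 175, 284, 321 and 287 CPM with siTFEB/siTFE3, with no overlap. The log2 fold change of -0.48 (SE 0.16, 95% interval -0.82 to -0.14) did not pass (adjusted p = 0.25), and the average over guides was -0.27 (SE 0.09, adjusted p = 0.149, limma-voom). With the replicate number as a block the average passed (-0.27, adjusted p = 0.041). Without the 2 libraries that stand apart it was -0.25 and passed (adjusted p = 0.0306), as it did without siNC; sgKEAP1-1 replicate 1 alone (-0.32, adjusted p = 0.0419). GSTM4 gave an average of -0.22 (SE 0.10, adjusted p = 0.346), and its 4 sgKEAP1-1 libraries were below all the siNC ones, at 12.2 to 14.4 against 14.5 to 21.2 CPM. GSTK1 libraries with siTFEB/siTFE3 in sgCtrl cells, at 46.8, 43.5, 43.3 and 46.8 CPM, were above the siNC ones, but the log2 fold change of 0.21 (SE 0.14) did not pass.

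For the 3 members that rose with the KEAP1 guides, knockdown left intervals that bound its effect. Averaged over guides, the log2 fold change with siTFEB/siTFE3 was -0.21 for GSTA1 (95% interval -0.58 to 0.15), 0.08 for MGST1 (-0.12 to 0.27) and -0.05 for GSTO1 (-0.16 to 0.06). The direct test of dependence is the interaction, the KEAP1 effect under siTFEB/siTFE3 minus that under siNC. It called 0 of 10 members and 0% of all genes for sgKEAP1-1, and 0 of 10 and 0% for sgKEAP1-2, while 304 and 454 genes had an unadjusted p under 0.05, none of them a member. For GSTA1 it was -0.13 (95% interval -1.10 to 0.84) with sgKEAP1-1 and -0.23 (-1.19 to 0.74) with sgKEAP1-2. For MGST1 it was 0.18 (-0.31 to 0.67) and -0.19 (-0.68 to 0.29), and for GSTO1 -0.11 (-0.38 to 0.16) and -0.07 (-0.34 to 0.20). These intervals do not show that the GSTA1 response was independent of TFEB and TFE3.

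**Figure D5:**
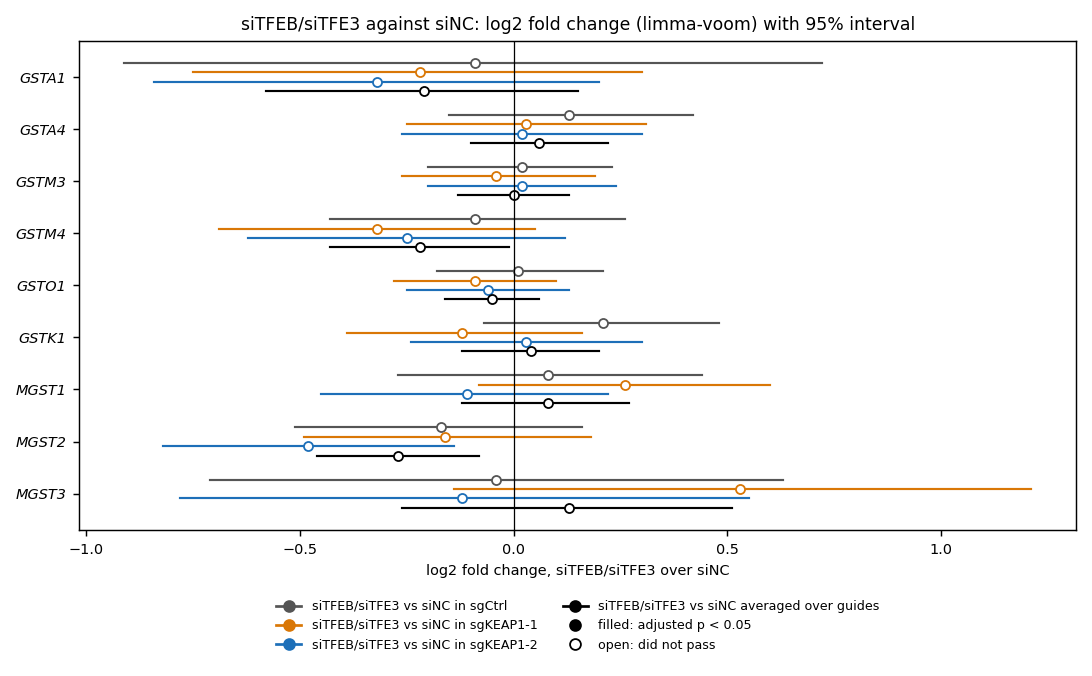
Log2 fold change of 9 members (rows) with siTFEB/siTFE3 against siNC in each guide background and averaged over guides (black), with 95% intervals, from limma-voom; all points are open because none passed an adjusted p of 0.05. MGST2 lies at or below -0.16 in all 4, and GSTA1, MGST1 and GSTO1 have average values of -0.21, 0.08 and -0.05.

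The guides were also compared directly. sgKEAP1-2 against sgKEAP1-1, averaged over both siRNAs, called 0 of 10 members beside 0.117% of all genes tested (13 genes, or 48 with the replicate number as a block). The difference was 0.08 for GSTA1 (95% interval -0.29 to 0.45), 0.17 for MGST1 (-0.07 to 0.40) and -0.07 for GSTO1 (-0.20 to 0.07), so none was shown to differ between the guides and none was shown to be equal.

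The summed level of the 10 members was 1100 ± 69.8 CPM in siNC; sgCtrl, 1480 ± 142 CPM with sgKEAP1-1 and 1620 ± 141 CPM with sgKEAP1-2 (SD, n = 4). Under siTFEB/siTFE3 it was 1080 ± 53.3, 1490 ± 38.8 and 1500 ± 206 CPM. The sum includes GSTP1, which made up 15.8% of the 1600 CPM in siTFEB/siTFE3; sgKEAP1-2 replicate 2. The libraries of that group ranged from 1200 to 1670 CPM. MGST1 made up 21.4% of the sum in siNC; sgCtrl and 31.1% and 36.0% with the guides, whereas MGST2, whose level gave no call, made up 35.3%, 23.5% and 22.6%. GSTA1 made up 1.87%, 8.77% and 8.33%. GSTO1 made up between 20.2% and 24.6% in all 6 groups.

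Genes whose pattern was most like a member's were ranked by Pearson's r of log2 CPM over the 24 libraries, which share their groups and depth, so r is given with no p. GSTA1 was closest to GSTA2 (0.972), RAB5IF (0.964) and P2RY6 (0.961). MGST1 was closest to GSR, glutathione reductase (0.958), SULT1A1, a sulfotransferase (0.945), and SLC40A1, the iron exporter (0.941). GSTO1 was closest to KRT18 (0.89), ANXA2 (0.887) and RHBDF2 (0.879).

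Of 17 other glutathione transferases and MAPEG relatives listed, GSTA2, GSTO2, GSTZ1 and GSTCD had rows and the last 2 gave no call, although GSTCD was called lower with sgKEAP1-2 under siNC once the replicate number was a block. GSTO2 was read too little to be tested, at 14 reads or fewer in a library. GSTA2 was the 1 gene of 3 tested that rose with both guides, under both siRNAs. Under siTFEB/siTFE3 its log2 fold change was 3.72 (adjusted p = 9.04e-06) with sgKEAP1-1 and 3.73 (adjusted p = 4.13e-06, limma-voom) with sgKEAP1-2.

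The export pumps ABCC2, ABCC3 and ABCC5 rose with both guides, while the aminopeptidase ANPEP, which trims conjugates, fell. The list of mercapturate enzymes and exporters had 16 of 18 genes tested, of which 4 rose and 1 fell with sgKEAP1-1 under siNC, beside 6.01% and 4.91% of all genes tested, and 5 rose and 1 fell with sgKEAP1-2, beside 7.58% and 7.14%. Under siTFEB/siTFE3 the counts were 4 and 1, beside 5.69% and 4.81%, then 6 and 3, beside 10.6% and 9.59%. With the replicate number as a block, 5 rose and 1 fell with sgKEAP1-1 under siNC, with GGT5 in addition. The other counts did not change. The share of all genes called in that blocked fit is not given here. The median log2 fold change was 0.04, 0.34, 0.08 and 0.21, against the all-gene medians given above. ABCC3, an efflux pump of the basolateral membrane, rose by 1.56 (adjusted p = 1.04e-08) and 1.64 (adjusted p = 2.11e-09), ABCC2, its apical counterpart, by 1.13 (2.73e-05) and 1.27 (3.22e-06), and ABCC5 by 1.00 (0.000162) and 1.14 (1.74e-05). NAT8, which acetylates cysteine conjugates, rose by 1.36 (0.0144) and 1.49 (0.00507) from a mean of 3.26 CPM. ANPEP gave -0.53 (0.0126) and -0.60 (0.00382). With knockdown 0 of 16 were called in any background or on average in limma-voom, beside 0.0179% to 2.33% of all genes.

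GCLM, GCLC, GPX2 and GSR, genes of glutathione synthesis and use, rose with both guides. Of 19 listed genes 17 were tested, of which 5 rose and 0 fell with sgKEAP1-1 under siNC, and 8 rose and 0 fell with sgKEAP1-2. These stand beside 6.01% higher and 4.91% lower, and 7.58% and 7.14%, of all genes. Under siTFEB/siTFE3, 6 rose and 1 fell with sgKEAP1-1, beside 5.69% and 4.81%, and 7 rose and 2 fell with sgKEAP1-2, beside 10.6% and 9.59%. With the replicate number as a block these 4 comparisons gave 8 and 0, 8 and 1, 7 and 1, and 8 and 3. The block added GLRX, SLC3A2 and SLC7A11 in the first, GLO1 in the second, GLRX in the third, and GLRX and HAGH in the last. The shares of all genes called in the blocked fit are not given here. The median log2 fold change of the 17 genes was 0.34, 0.41, 0.29 and 0.27 without the block. GCLM and GCLC, the subunits of the enzyme that limits glutathione synthesis, rose by 1.88 and 2.17 and by 1.36 and 1.62, and GPX2, a glutathione peroxidase, by 1.13 and 1.19. GSR, which regenerates reduced glutathione, rose by 1.03 and 1.36 (adjusted p at most 3.27e-06 for these 4 genes with either guide, limma-voom). With knockdown 0 of 17 were called, beside 0.0179% to 2.33% of all genes. The members and these lists were chosen with earlier results in view, so the counts describe the genes and give no independent support.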

How the data were processed

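QuantSeq 3′ libraries of HepG2 cells were sequenced as single-end reads. The authors trimmed, aligned and counted them with FastQC 0.72, cutadapt 1.16, STAR 2.7.5b and featureCounts 1.6.3, per the submitters' processing notes, which name hg38 where the study's methods name hg19 (GRCh37). The strand setting and annotation are not given in the sources used here. The deposited values are raw whole-number counts per gene, with 1 column per library and 0 columns unmatched.

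Rows with no gene ID (1414 of 13446, 1.35% to 2.57% of the reads of a library) were left out, rows sharing an ID were summed and IDs with identical counts were kept as 1 feature. Counts were filtered with filterByExpr, scaled with TMM and tested with limma-voom in 1 fit of 6 group means (limma 3.58.1, edgeR 4.0.16, R 4.3.3), the method the study names, with two-sided tests at an adjusted p of 0.05. The 95% intervals use the moderated degrees of freedom. Scripts were tested on simulated data. Gene positions are those of GENCODE on GRCh37 and promoter windows those of RefSeq on GRCh38.p14; symbols come from NCBI. Totals per library ranged from 3527000 to 4600951 reads, which carry no molecular identifiers, so the floor of 3 reads covers counting error only. Alternatives were edgeR, DESeq2 1.42.0, other scaling, no filter, sample weights, a replicate block and left-out libraries. All 10 members are named, with genes of the lists by the size of their change with both guides. The members and lists were chosen with earlier results of these data known, and the plasma cell list and the fit without JCHAIN libraries after seeing the data.

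The sample descriptions and column names give all 6 libraries of a replicate number 1 prefix, written like a day and month, whose meaning the labels do not state. The numbers were therefore taken to pair libraries across groups. Values or counts with the number as a block stand beside results of the members and of the 3 gene lists whose calls they change. The correlation of deviations of same-numbered libraries from their group means was -0.163 to 0.43 over 60 pairs, 20 of them over 0.1.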

Additional observations from a re-analysis of the deposited data

Results flagged for a closer look

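In 6 of 59 sets of 4 libraries (a member in a group), 1 library lay far from the other 3 by the 95% critical value of Dixon's ratio. Chance flags about 1 in 20 such sets. For GSTP1 these were siNC; sgCtrl replicate 2 at 4.99 CPM and siNC; sgKEAP1-2 replicate 4 at 9.9 CPM, each with the other 3 libraries at 0, and siTFEB/siTFE3; sgKEAP1-2 replicate 2 at 254 CPM, with the others at 0.309 CPM or less. All 3 are libraries with JCHAIN reads. For MGST2, siNC; sgKEAP1-2 replicate 3 lay high at 416 CPM, with the others at 345 to 351 CPM, and siTFEB/siTFE3; sgKEAP1-1 replicate 3 lay low at 267 CPM, with the others at 319 to 326 CPM. For GSTM3, siTFEB/siTFE3; sgKEAP1-2 replicate 2, the library with 1031 GSTP1 reads, lay low at 37.4 CPM, with the others at 44.8 to 45.9 CPM.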

How the results depend on the processing

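Member results were computed under 24 fits that leave out 1 library and 11 other alternatives. Of 110 results 90 had a value under all 35, since GSTP1 was not tested without the JCHAIN libraries and the groups of a contrast alone could not serve the average knockdown or most GSTP1 results. Of 3823 values 19 gained and 30 lost a call, 47 with no call moved by more than their SE, and 1 with a call changed sign. The other 3726 kept their side of the threshold. Values with no call in either fit changed sign 164 times. GSTA1 kept its call with both guides under both siRNAs in all of them, and MGST1 in all but the fit without JCHAIN libraries, which leaves 1 library of siTFEB/siTFE3; sgKEAP1-1 and gave 1 member called for sgKEAP1-1 under siTFEB/siTFE3 in place of 3. For sgKEAP1-2 under siTFEB/siTFE3 (2 members) the replicate block gave 4, all libraries numbered 1 left out gave 5, and the 2 libraries that stand apart left out gave 4. The share of all genes called in the same fit is not given beside the member counts of this paragraph, so they have no background. For the average knockdown (0 members), DESeq2, the replicate block, sample weights and both fits without libraries numbered 1 each gave 1. That gene was GSTP1 under DESeq2 and MGST2 under the others (with the block, -0.27, adjusted p = 0.041). DESeq2 also called GSTP1 lower with sgKEAP1-1 under siNC (adjusted p = 2.24e-05, 4 members in place of 3), and GSTP1 alone, 1 member, for knockdown in sgKEAP1-1 and for sgKEAP1-2 against sgKEAP1-1, where it gave 11.79 (adjusted p = 0.0126) against -0.09 in limma-voom. All 4 of these DESeq2 calls involve siNC; sgKEAP1-1, whose libraries are at 0, so their fitted sizes are no bound. The causes were not tested. Fits that left out 1 library gave 3 members for sgKEAP1-1 under siNC, 2 to 3 for the other KEAP1 comparisons, 0 to 1 for the average knockdown and 0 for the other 6. The replicate block changed no other call of a member beyond the GSTO1 and MGST2 calls given here and above. Depths of 3527000 to 4600951 reads limit GSTA2 and GSTO2 in control cells, and in GSTP1 a library at 0 allows up to 3 reads.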
